A study of Arabidopsis thaliana with 222 samples.

Results

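The 49 genes described here are nuclear genes of Arabidopsis thaliana whose root transcript level in wild-type Col 0 seedlings was at 0.5 or less of the axenic level with at least 8 of 16 single bacterial strains. They were chosen from the table itself: each count was divided by its library total and multiplied by 1000000 to give CPM, the median of the 6 libraries of each strain was set against the median of the 6 axenic (NB, no bacteria) libraries, and genes with an NB median under 3 CPM were left out. Of 32311 genes in the table, 16970 nuclear genes reached that level and 49 of them, or 0.289%, passed the rule. All of the Col 0 values below, and the levels of the axenic mutants against axenic Col 0, rest on libraries the rule used, so they are given as a description with no test. The mutant libraries with bacteria, set against the NB libraries of the same mutant, played no part in the choice, and these comparisons were tested.

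The study measured root transcriptomes by RNA sequencing to ask how single bacteria from plant root and leaf collections that change root branching alter gene expression in the wild type and in mutants with few lateral roots. Seedlings were germinated without bacteria for 7 days, moved to plates with 1 strain or with none, and their roots were harvested 7 days later. All 222 libraries come from the Columbia background, in 37 groups of 6. Col 0 roots met RCL115 (Bacillus_A), L384 (Pararhizobium), L76 (Acidovorax), RMF217 (Paenibacillus), L412, L339 and L343 (Sphingomonas), L344 (Bosea), L359 (Flavobacterium), L180 and RMF8 (Chryseobacterium), RMF331 (Luteibacter), L469 (Methylobacterium), L196 (Exiguobacterium), L264 (Leifsonia) or RMF27 (Bacillus_C megaterium). The double mutant arf7 arf19 lacks function of a pair of auxin response factors that start the lateral root programme, and it met L344. The nph4-1 mutant carries an allele of ARF7 alone and met L344, L359 and RCL115. The lbd16-1 mutant is impaired in a transcription factor of dividing founder cells and met RMF8, RMF217, L76, L180, L343, L359, L384 and L412. The gnom184 mutant carries an allele of GNOM, a factor of vesicle traffic that places auxin carriers, and met L196, L339, L469 and RMF27. Each mutant, like Col 0, has 6 NB libraries, and each library pools at least 10 roots.

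Library totals lay between 10255732 and 29735838 counts, with a median of 18434824. ARF7 (listed as NPH4) had 26.7 to 31.8 CPM in arf7 arf19 and 47.1 to 62.6 CPM in nph4-1, against 62.1 to 109 CPM in the 102 Col 0 libraries. ARF19 had 7.09 to 11.5 CPM in arf7 arf19, against 25.4 to 68.4 CPM in Col 0. The titles of 2 libraries, 1 labelled gnom184 with L196 and 1 labelled arf7 arf19 with L344, each give 2 alternative library numbers, which fall in the runs of both groups. Each was used in the group that its own genotype and treatment labels give, and without both 31 of the 49 genes were called lower in either contrast, against 32 and 32 with them. LBD16 overlapped between lbd16-1 and Col 0 (1.95 to 4.68 CPM in lbd16-1, against 3.64 to 10.9 CPM in Col 0), and GNOM covered about the same range in gnom184 and Col 0 (71.9 to 122 CPM, against 71.8 to 129 CPM), so the level of the targeted gene does not check the label of gnom184. The 7 shoot markers, which a root sample should lack, summed to 215 to 1628 CPM in Col 0 with bacteria and 346 to 537 CPM in Col 0 NB, and to 151 to 5577 CPM in mutants with bacteria and 328 to 1544 CPM in mutant NB libraries. The 4 root hair markers found in the table summed to 101 to 422 CPM in Col 0 with bacteria, against 94.5 to 139 CPM in Col 0 NB, and to 64.6 to 514 CPM in mutants with bacteria, against 41.7 to 147 CPM in mutant NB libraries. The 3 columella and root cap markers summed to 8.16 to 40.1 CPM in Col 0 with bacteria, against 9.26 to 15.0 CPM in Col 0 NB, and to 1.89 to 56.3 CPM in mutants with bacteria, against 1.63 to 10.9 CPM in mutant NB libraries. The part of these markers in the values below was not tested. In whole roots, fewer cells of a type and less RNA per cell cannot be told apart.

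Roots assimilate nitrate through nitrate reductase and nitrite reductase, and the second step draws electrons from NADPH through a root ferredoxin and its reductase. The oxidative pentose phosphate pathway in plastids supplies that NADPH, and siroheme is the cofactor of nitrite reductase. A separate set of enzymes handles reactive and foreign compounds in plants: reductases remove the reactive bond of alkenals, glutathione transferases and glycosyltransferases attach glutathione or sugars, and nitrilases break down cyanide products. By annotation, and grouped after their values were known, 11 belong to detoxification and conjugation, 6 to nitrogen assimilation and reductant supply, 3 to hormone synthesis or response, 5 to metal, phosphate or sugar handling, 6 to proteolysis, senescence or defence, 2 to chlorophyll binding and 2 to terpenoid synthesis, 3 are non-coding, and 11 are of other or unknown function.

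Transcription factors of the TGA class bind a TGACG core and are known activators of plant detoxification genes. The 300 bases before the annotated start were read from the TAIR10.1 genome for all 49 genes and searched on both strands for several short motifs. Of these only the TGA element, TGACG, is reported here. It was present in 10 of the 49 windows (20.4%), against 20.9% of the 37897 windows of all annotated genes, so its share was near the background. Among the 11 detoxification genes it was found in 4, shown here as the 120 bases before the start, 5′ to 3′ on the strand of the gene, with the element in capitals. They lie at chr5:5578087-5578206 (minus strand, AER), chr2:15834646-15834765 (plus strand, ChlAKR), chr1:5871904-5872023 (plus strand, GSTU25) and chr5:7379067-7379186 (plus strand, NIT4), and no other annotated gene overlaps them.
AER: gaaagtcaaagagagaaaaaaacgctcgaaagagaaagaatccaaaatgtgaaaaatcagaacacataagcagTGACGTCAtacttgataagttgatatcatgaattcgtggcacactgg
ChlAKR: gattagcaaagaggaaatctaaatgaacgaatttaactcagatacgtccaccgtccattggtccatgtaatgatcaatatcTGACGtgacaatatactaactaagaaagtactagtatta
GSTU25: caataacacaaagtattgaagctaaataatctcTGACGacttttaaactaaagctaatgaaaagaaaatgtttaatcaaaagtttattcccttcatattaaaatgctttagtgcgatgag
NIT4: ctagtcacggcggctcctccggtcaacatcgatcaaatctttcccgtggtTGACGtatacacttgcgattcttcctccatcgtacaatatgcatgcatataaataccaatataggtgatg
In AER the element occurs on both strands within 1 palindrome, with first bases 47 and 44 bases before the start; the others begin 39 (ChlAKR), 87 (GSTU25) and 70 (NIT4) bases before it. A match of these letters is a description of the sequence and not a binding site.

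In Col 0 the number of the 49 genes at 0.5 or less of NB differed widely between strains, and all of these counts were set by the rule. With L469 it was 48 genes (0.707% of the 16970 genes considered), with L180 45 (0.577%), with RMF331 45 (0.477%), with L343 44 (1.03%), with RMF8 41 (0.601%) and with L344 40 (0.548%). With L76 it was 39 (0.377%), with L384 38 (0.477%), with L264 37 (0.577%), with RMF27 36 (1.33%) and with L339 33 (0.271%). The remaining strains gave fewer: L196 22 (0.342%), L359 21 (0.165%), L412 10 (0.124%), RMF217 3 (0.0884%) and RCL115 2 (0.0354%). Over the 49 genes the median ratio of strain to NB was lowest with L469, at 0.336, and was 0.814 with RCL115 and 0.826 with RMF217. Of 784 pairs of gene and strain, 504 (64.3%) were at 0.5 or less of NB. In 465 pairs (59.3%) all 6 strain libraries lay below all 6 NB libraries, against 4.2% of pairs over all genes considered. In all, 1 gene was at 0.5 or less of NB with 15 strains, 4 with 14, 2 with 13, 5 with 12, 13 with 11, 2 with 10, 8 with 9 and 14 with 8.

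**Figure D1:**
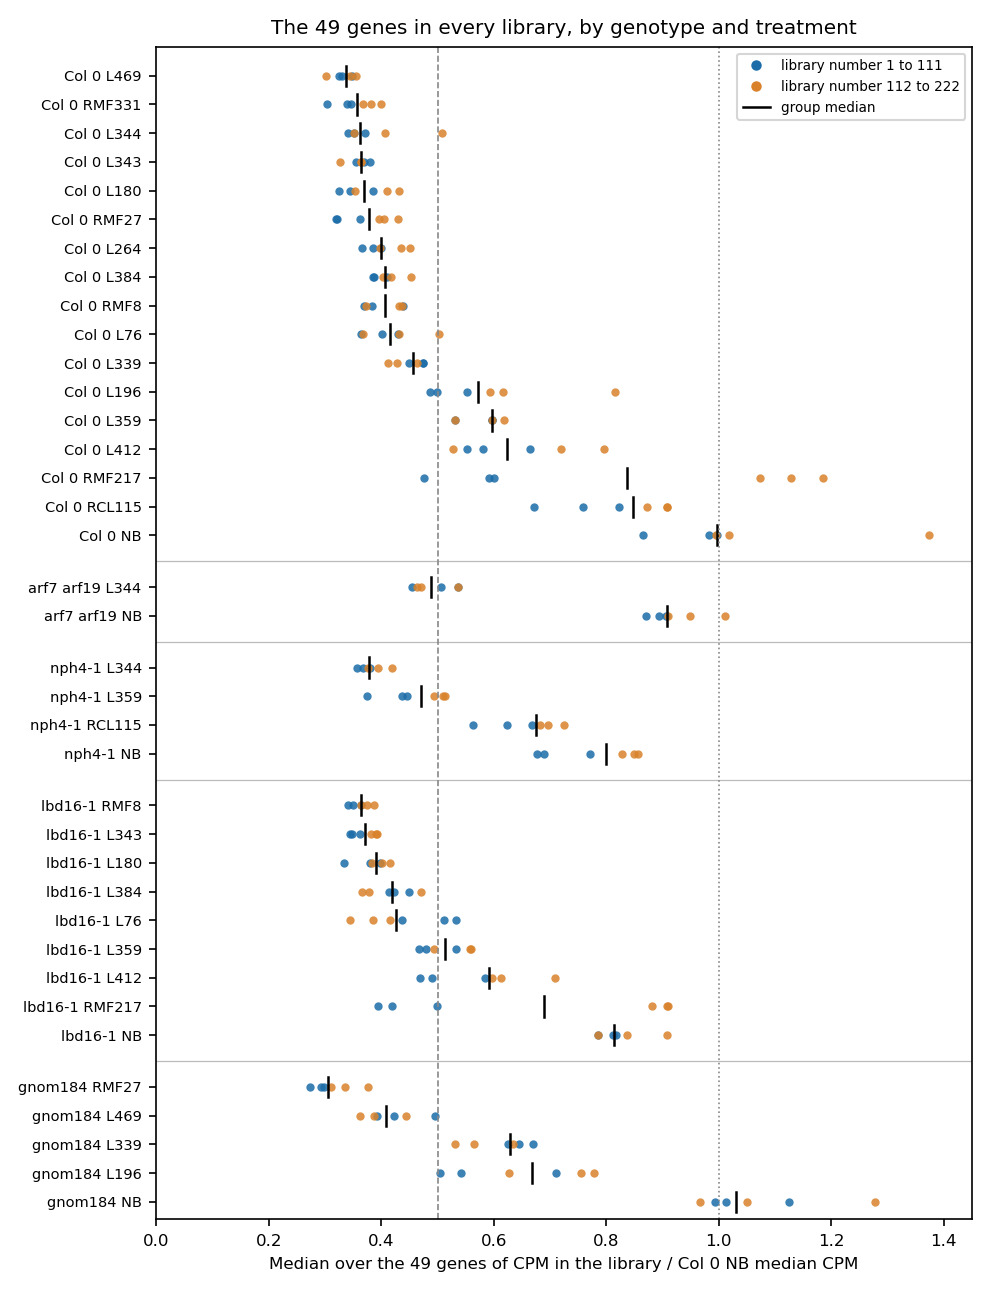
Each point is 1 library, placed on the x axis by the median over the 49 genes of its CPM divided by the Col 0 NB median; rows are the 37 groups of genotype and treatment, with NB at the bottom of each genotype, and colour shows whether the library is numbered 1 to 111 or 112 to 222. The dashed line marks 0.5 and the dotted line 1. Black bars are group medians. The group median is lowest with L469 in Col 0 and with RMF27 in gnom184, and in both RMF217 groups the libraries numbered 1 to 111 lie below those numbered 112 to 222.

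The genes just inside and just outside the threshold were close together. The ratio with the strain ranked eighth was 0.499947 for AT4G08555, 0.499794 for AT3G28510 and 0.499521 for AT1G17820, all members. Outside it were PMZ, a stress-associated zinc finger gene, at 0.501616, the galactosidase gene BGAL7 at 0.503367 and the peroxidase gene AT5G47000 at 0.506485.

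Col 0 NB replicate 1 stood apart from the other NB libraries. Its median ratio to the NB medians was 1.37 over the 49 genes, against 0.865 to 1.02 in the other 5, and it had the highest level of the 6 for 31 of the 49 genes (25.1% of all genes considered). Without it the rule still chose 49 genes, of which 39 were the same. Leaving out each Col 0 NB library in turn kept 36 of the 49 genes every time.

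AT5G16980 was the gene at 0.5 or less of NB with 15 strains. It is annotated as a zinc-binding dehydrogenase family protein. It lies next to the alkenal reductase gene AER, at chr5:5578846-5581311 against chr5:5575973-5578086 for AER, both on the minus strand of TAIR10.1. In Col 0 its strain medians ran from 1.38 CPM with L180 to 6.16 CPM with RCL115, against 7.78, 10.9 and 14.5 CPM (lowest, median and highest) in NB. Of 96 Col 0 strain libraries, 94 lay below the lowest NB library. AER, the 2-alkenal reductase that removes the reactive bond of lipid-derived aldehydes, had strain medians of 16.7 CPM (RMF27) to 60.4 CPM (RCL115), against 70.4, 86.9 and 120 CPM in NB. For AER 93 of the 96 strain libraries were below every NB library. The 2 genes are similar in sequence, and how the authors' quantification shared reads between them is uncertain.

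The other detoxification genes were also below NB with most strains. ChlAKR, a chloroplast aldo-keto reductase of reactive aldehydes, had strain medians down to 1.39 CPM (RMF27), against 7.52, 14.1 and 27.6 CPM in NB. CYP89A6, a cytochrome P450 gene, had strain medians from 5.12 CPM (L180) to 18.6 CPM, against 20.4, 28.6 and 37.5 CPM in NB. UGT84A3, which makes glucose esters of hydroxycinnamic acids, had strain medians from 1.91 CPM (L469) to 12.4 CPM (RMF217), against 9.28, 17 and 35.5 CPM in NB. For UGT84A3 the relatives in the same family make the sharing of reads uncertain too. PMAT1, a malonyltransferase of phenolic glucosides, had strain medians from 12 to 44 CPM, against 41, 54.6 and 96.5 CPM in NB. GSTU25, a glutathione transferase, was the most abundant of this set, with strain medians from 96.1 CPM (L344) to 245 CPM, against 216, 276 and 341 CPM in NB. NIT4, the nitrilase that breaks down the cyanide product beta-cyanoalanine, had strain medians from 4.07 CPM (L469) to 10.7 CPM (RCL115), against 8.25, 13.5 and 17.1 CPM in NB. AT2G21640, annotated as a marker of oxidative stress, was low, with 2.78, 4.17 and 14.6 CPM in NB.

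The genes of nitrogen assimilation and reductant supply included the most abundant of the 49. RFNR2, the root ferredoxin reductase, had strain medians from 214 CPM (L344) to 726 CPM, against 561, 720 and 1040 CPM in NB. UPM1, which makes the precursor of siroheme, had strain medians from 132 CPM (L344) to 370 CPM (L412), against 297, 330 and 474 CPM in NB. AT5G41670, a 6-phosphogluconate dehydrogenase, had strain medians from 160 to 460 CPM, against 338.8, 449 and 808 CPM in NB. G6PD3, a plastid glucose-6-phosphate dehydrogenase, had strain medians from 42.6 to 131 CPM, against 108, 124 and 221 CPM in NB. With RCL115 and RMF217 the libraries of RFNR2, UPM1, AT5G41670 and G6PD3 overlapped those of NB. With L412 the medians of these genes, 652, 370, 460 and 123 CPM in that order, also lay above the lowest NB library. So did the medians of RFNR2, UPM1 and AT5G41670 with L359, and those of UPM1 and AT5G41670 with L196. NADP-ME1, an NADP-malic enzyme, had strain medians from 2.94 CPM (L469) to 10.5 CPM (RCL115), against 8.25, 9.94 and 13 CPM in NB. HB1, a hemoglobin that removes nitric oxide, had strain medians from 6.76 CPM (RMF8) to 19.4 CPM (L412), against 12.6, 17.8 and 40.3 CPM in NB. UPM1 and G6PD3 each overlap other annotated genes, and without a stated use of strand their reads cannot be told apart from those of their neighbours. The same limit holds for AT2G21210, CWINV5, AT3G16530, AT5G10210, AT5G08360 and UGT75B1, described below.

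The 2 sets differed in how many strains they followed. Over all strains the median ratio was 0.364 for the detoxification genes, with 137 of 176 pairs at 0.5 or less of NB, and 0.448 for the nitrogen and reductant genes, with 58 of 96 pairs. With L196, L359 and L412 the median ratios of the nitrogen and reductant genes were 0.782, 0.829 and 1.01, against 0.498, 0.419 and 0.518 for the detoxification genes. With RMF217 they were 0.952, against 0.736, and with RCL115 1.03, against 0.750. Not every gene followed its set. With L196 NADP-ME1, of the nitrogen and reductant set, was at 0.297, and PMAT1, of the detoxification set, at 0.707. Because the sets were made after these values were known, this comparison of the sets is a description.

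Of the 3 hormone genes, ACS7, an ACC synthase that makes the precursor of ethylene, had 4.23, 5.63 and 7.91 CPM in NB. The GH3-family gene AT5G13370 had strain medians from 9.29 CPM (RMF27) to 24.4 CPM (RCL115), against 27.2, 31.1 and 46.6 CPM in NB. The SAUR-family gene AT2G21210 had strain medians from 0.744 CPM (L76) to 4.34 CPM (L412), against 2.12, 3.88 and 6.48 CPM in NB. Over the 3 genes the median ratio was 0.468, with 29 of 48 pairs at 0.5 or less of NB.

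Among genes of metal, phosphate and sugar handling, NAS2, a nicotianamine synthase of the metal chelator, had strain medians from 42.4 to 103 CPM, against 81.1, 125 and 264.04 CPM in NB. The highest of these NB values is replicate 1, and the next is 132 CPM. CWINV5, a cell wall invertase gene, had strain medians from 1.53 CPM (RMF27) to 11.4 CPM (RCL115), against 9.11, 12.6 and 17.1 CPM in NB. The transporter-family gene AT3G05400 had strain medians from 2.86 CPM (L469) to 13.1 CPM (RCL115), against 9.5, 13 and 16 CPM in NB. AT5G03545, a transcript annotated to the phosphate starvation response, was above NB with RMF27, at a median of 46 CPM, against 10.07, 23.2 and 32.7 CPM in NB, a ratio of 1.98.

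In the group of proteolysis, senescence and defence, the cysteine proteinase gene CP1 had strain medians from 6.31 CPM (L196) to 26.7 CPM, against 28.8, 36.4 and 43.7 CPM in NB. Of 96 strain libraries, 93 lay below the lowest NB library for CP1. SRG1, a senescence-related oxygenase gene, had strain medians from 14.2 CPM (L469) to 38.7 CPM (RCL115), against 33.8, 41 and 58.1 CPM in NB. PDF2.1, a plant defensin, had strain medians from 2.05 CPM (RMF27) to 17.8 CPM (RMF217), against 15.7, 17.36 and 20.2 CPM in NB. BGLU11, a beta-glucosidase gene, had strain medians from 57.1 to 108 CPM, against 99.3, 134 and 182 CPM in NB.

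SQE6, a squalene epoxidase gene of the terpenoid set, had strain medians from 7.03 CPM (L343) to 23.8 CPM (RCL115), against 22.9, 35 and 40.9 CPM in NB. CAB3, a chlorophyll-binding protein, had strain medians from 4.49 CPM (L469) to 12.7 CPM (L264), against 4.6, 13.2 and 21.8 CPM in NB, a range within which strain and NB libraries overlapped. CAB3 shares near-identical copies with other light-harvesting genes, so its counts are uncertain; its highest libraries are also high in shoot markers, as described for arf7 arf19, and their part in its values was not tested. The early light-induced gene ELIP2 had strain medians from 8.92 CPM (L469) to 24 CPM (L196), against 15, 25.9 and 54 CPM in NB. The AAA-type ATPase gene AT3G28510 had a median of 86.2 CPM with L196, against 11.2, 22.3 and 57.6 CPM in NB, a ratio of 3.87. UGT75B1, a further glucosyltransferase gene, had strain medians from 29.5 CPM (RMF27) to 78.9 CPM (RCL115), against 74.8, 90.4 and 107 CPM in NB. AT3G22550, whose role is not given here, had strain medians from 8.78 CPM (L180) to 31.2 CPM (RMF217), against 22, 30.1 and 66.8 CPM in NB. The inositol oxygenase gene MIOX1, the lipid transfer family gene AT2G37870 and the terpenoid cyclase family gene AT1G48800 were lower in level, with NB medians of 6.11, 5.28 and 3.34 CPM. UGT74E2, a glucosyltransferase gene, had strain medians from 21.8 CPM (L469) to 59.5 CPM (RCL115), against 51.4, 73.1 and 163 CPM in NB. The lectin-family gene AT3G16530 had strain medians from 18.8 CPM (L343) to 76.2 CPM (RCL115), against 78.3, 91.7 and 103 CPM in NB, so every strain median lay below the lowest NB library. AT4G08555 had strain medians from 6.24 CPM (RMF27) to 30.1 CPM (L196), against 26.1, 28.4 and 39.0 CPM in NB. AT5G10210 had strain medians from 6.11 CPM (L469) to 22.6 CPM (L359), against 16.7, 21.5 and 30.6 CPM in NB. The NB medians of AT2G41730, AT5G08360, the MADS-box gene AGL46, AT1G76470 and AT5G66815 were lower, at 7.44, 7.00, 6.18, 4.37 and 4.10 CPM. The non-coding AT2G08665, AT1G05523 and AT4G39838, and AT1G17820 and AT1G38065, were sparse: each of these 5 had libraries at 0, and all but AT1G38065 overlap other annotated genes.

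The axenic mutants were set beside axenic Col 0 for the same genes. The median ratio over the 49 genes was 0.925 in arf7 arf19 NB, 0.781 in nph4-1 NB, 0.808 in lbd16-1 NB and 1.08 in gnom184 NB. In arf7 arf19 NB 28 of the 49 genes were below Col 0 NB (62.9% of all genes considered), in nph4-1 NB 45 (56.1%), in lbd16-1 NB 41 (50.4%) and in gnom184 NB 19 (59.0%). These ratios share the Col 0 NB libraries that chose the genes. NIT4 had 2.33, 2.9 and 3.1 CPM in arf7 arf19 NB, against 8.25, 13.5 and 17.1 CPM in Col 0 NB, and all 6 arf7 arf19 libraries lay below all Col 0 libraries. AT5G16980 had 15.4, 23.8 and 30.6 CPM in gnom184 NB, against 7.78, 10.9 and 14.5 CPM in Col 0 NB, and AER had 94.2, 179 and 202 CPM, against 70.4, 86.9 and 120 CPM.

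**Figure D2:**
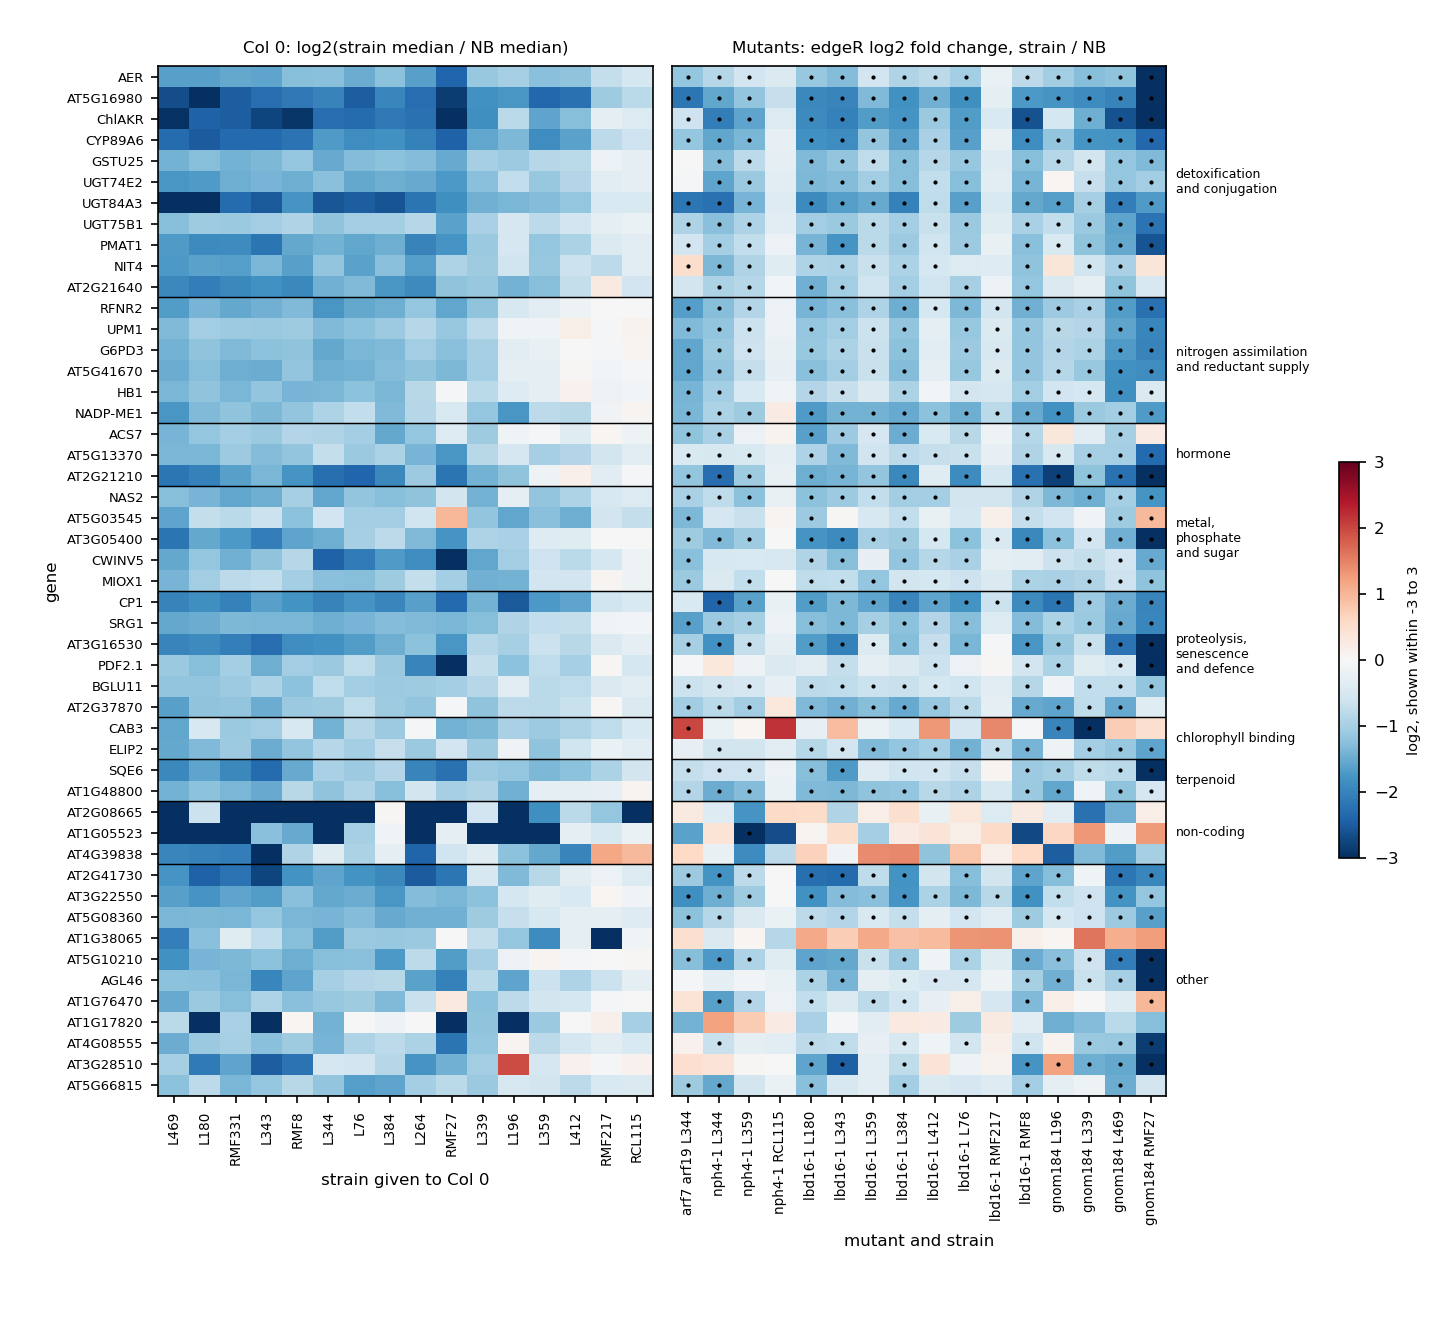
Rows are the 49 genes, ordered by role. The left panel gives the log2 ratio of the strain median to the NB median for 16 strains in Col 0, and the right panel the edgeR log2 fold change against NB of the same mutant for 16 contrasts; dots mark adjusted p under 0.05, and colours end at -3 and 3. Most cells of both panels are below 0, with the RCL115 and RMF217 columns palest; in the mutants CAB3, AT1G38065 and the non-coding genes are above 0 in many contrasts, with 1 such call, CAB3 in arf7 arf19 with L344.

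In the mutants, the 49 genes were tested by edgeR's quasi-likelihood test against the NB libraries of the same mutant, among 21635 genes, with Benjamini-Hochberg adjustment. Calls are those with an adjusted p under 0.05. All 49 were among the genes tested. Over the 16 contrasts there were 520 calls lower and 5 calls higher out of 784, beside 10.8% lower and 12.9% higher over all pairs of gene and contrast. Of the 49 genes, 45 were called lower in at least 1 contrast (47.7% of all genes tested), 31 in 12 or more (2.74%) and 17 in 14 or more (1.13%). The contrasts of a mutant share its NB libraries, so they are not independent repeats. RFNR2, AT3G22550, AT3G05400 and NADP-ME1 were called lower in 15 contrasts, all but nph4-1 with RCL115 (0.398% of all genes were called lower in 15 or more). AT2G08665, AT1G38065, AT4G39838 and AT1G17820 were called lower in none; these were picked out after their values were seen, and all are sparse.

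The medians over the 49 genes were below 0 in all 16 contrasts. The median log2 fold change was lowest in gnom184 with RMF27, at -1.70, and nearest to 0 in nph4-1 with RCL115, at -0.22, while the median over all genes tested lay between -0.0008 and 0.03. The raw ratios can be set beside those of Col 0. Counting only genes with at least 3 CPM in the NB median of the mutant, the number at 0.5 or less of NB in lbd16-1 was 31 of 45 with L180 (0.607% of all genes at that level), 31 with L343 (0.872%), 15 with L359 (0.365%), 27 with L384 (0.471%), 7 with L412 (0.147%), 20 with L76 (0.406%), 0 with RMF217 (0.0707%) and 33 with RMF8 (0.713%). In nph4-1 it was 24 of 46 with L344 (0.588%), 15 with L359 (0.282%) and 2 with RCL115 (0.0412%), and in arf7 arf19 25 of 42 with L344 (1.38%). In gnom184 it was 20 of 46 with L196 (0.871%), 13 with L339 (0.201%), 34 with L469 (0.752%) and 33 with RMF27 (4.49%). The order of the strains in lbd16-1, with RMF8, L180 and L343 at the high end and RMF217 at the low end, is a description, since the NB libraries that set the filter also set the ratios.

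In lbd16-1, most of the 49 genes were called lower with every strain but RMF217. The number of the 49 genes called lower was 42 with L180 (10.6% of all genes tested), 40 with L343 (11.4%), 33 with L359 (7.22%), 42 with L384 (9.83%), 28 with L412 (5.74%), 36 with L76 (9.52%), 9 with RMF217 (1.85%) and 42 with RMF8 (12.2%). None was called higher in any of the 8, beside 11.4%, 13.1%, 9.04%, 11.4%, 7.15%, 11.2%, 3% and 15% of all genes in the same order, and none of the 49 was higher in them at an unadjusted p under 0.05 or by DESeq2. AT5G16980 had 1.223 to 2.93 CPM with L180 and 1.67 to 2.94 CPM with RMF8, against 5.34, 7.77 and 9.84 CPM in lbd16-1 NB. RFNR2 had 212, 239 and 277 CPM with RMF8, against 604, 664 and 778 CPM in NB (log2 fold change -1.44, SE 0.14, adjusted p 5.19e-18). CP1 had 6.83, 9.74 and 10.4 CPM with RMF8, against 29, 31 and 54.8 CPM in NB (log2 fold change -1.91, SE 0.20). None of these RMF8 libraries overlapped the NB libraries. With L412 UPM1 was nearer to NB, at 230, 297 and 346 CPM, against 306, 346 and 383 CPM in NB, and was not called. Of the 6 nitrogen and reductant genes 2 were called lower with L412, RFNR2 (log2 fold change -0.53) and NADP-ME1 (-1.23). With the same strain 10 of the 11 detoxification genes were called lower.

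In nph4-1, 37 of the 49 genes were called lower with L344 (11.2% of all genes tested) and 33 with L359 (5.57%). None was called higher with these strains by edgeR or DESeq2, nor at an unadjusted p under 0.05, beside 11.8% and 7.68% of all genes. With RCL115 none was called lower and none higher, beside 0% of all genes lower and 0.00924% higher; at an unadjusted p under 0.05 edgeR gave 7 lower and 1 higher, and DESeq2 called none. RFNR2 had 190, 202 and 245 CPM with L344 and 265, 277 and 284 CPM with L359, against 403, 500 and 581 CPM in NB. With RCL115 RFNR2 had 368, 434 and 515 CPM, overlapping NB. AT5G16980 had 2.68, 4.69 and 7.1 CPM with RCL115, against 4.5, 8.5 and 9.93 CPM in NB, and these also overlapped.

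In gnom184, 32 of the 49 genes were called lower with L196 (17.3% of all genes tested), 36 with L339 (14.9%), 42 with L469 (12.5%) and 36 with RMF27 (28.8%). None was called higher with L339 (18.9% of all genes) or L469 (15.9%); at an unadjusted p under 0.05 there was 1 with L339 and none with L469, and DESeq2 called none. RMF27 was the contrast with the lowest fold change for 27 of the 49 genes, and the share over all genes was not counted. Of the 16 contrasts it also had the largest shares of all genes called, 28.8% lower and 32.7% higher. Whether the count of 27 is particular to the 49 genes was therefore not tested. AT5G16980 had 0.127, 0.633 and 0.816 CPM with RMF27, against 15.4, 23.8 and 30.6 CPM in gnom184 NB (log2 fold change -5.45, SE 0.28, adjusted p 8.58e-45). AER had 8.47, 10.6 and 14.6 CPM, against 94.2, 179 and 202 CPM (-4.05, SE 0.17, adjusted p 6.94e-55). PDF2.1 had 0.839, 1.219 and 1.71 CPM, against 14.1, 26 and 29.8 CPM (-4.40, SE 0.25, adjusted p 9.08e-40). No RMF27 library reached an NB library in any of the 3 genes. With the other 3 strains of gnom184 AT5G16980 medians were 5.97 CPM (L469), 7.01 CPM (L339) and 7.25 CPM (L196), and PDF2.1 medians were 16.096, 18.3 and 12.9 CPM. RFNR2 had 151, 175 and 189 CPM with RMF27, against 628, 799 and 888 CPM in NB (-2.25, SE 0.14).

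**Figure D3:**
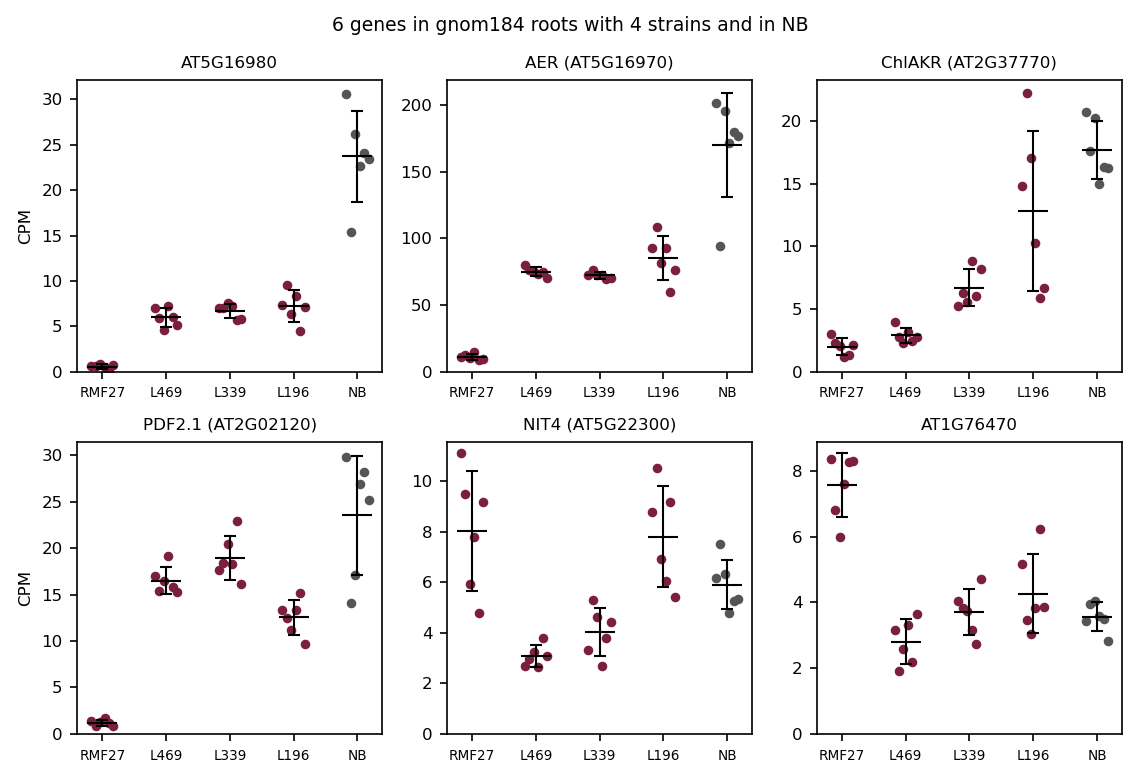
CPM of AT5G16980, AER, ChlAKR, PDF2.1, NIT4 and AT1G76470 in gnom184 roots with RMF27, L469, L339 or L196 and without bacteria (NB); points are libraries, and lines give the mean ± SD (n = 6). AT5G16980, AER and PDF2.1 are lowest with RMF27, and AT1G76470 is highest with it.

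The 5 calls in the opposite direction fell in 3 contrasts. In gnom184 with RMF27 (32.7% of all genes called higher), AT1G76470, annotated as an oxidoreductase, had 5.98, 7.95 and 8.38 CPM, against 2.82, 3.54 and 4.05 CPM in NB (log2 fold change 0.99, SE 0.20, adjusted p 4.79e-06). The groups of AT1G76470 did not overlap. In the same contrast AT5G03545 had 46.5, 57.3 and 69.2 CPM, against 14.9, 25.4 and 42.5 CPM (0.97, SE 0.24, adjusted p 0.000244), also with no overlap. In gnom184 with L196 (18.7% of all genes called higher), AT3G28510 had 58.5, 126 and 155 CPM, against 39.8, 46 and 81.8 CPM (1.21, SE 0.24, adjusted p 1.62e-05), and 1 NB library lay among the strain libraries. The remaining 2 were CAB3 and NIT4 in arf7 arf19 with L344.

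The equal-weight means over the strains of a mutant gave 35 genes lower in nph4-1 (5.99% of all genes), 42 in lbd16-1 (12.3%) and 39 in gnom184 (22.3%), and none higher. At an unadjusted p under 0.05 none was higher in these 3 means by edgeR, and DESeq2 called none higher. In 33 genes all 3 means were called lower (3.49% of all genes), and 27 of these were also called lower in arf7 arf19 with L344 (2.75%). The mean log2 fold change of AT5G16980 was -2.78 (SE 0.15) in gnom184, -1.54 (SE 0.15) in lbd16-1 and -1.14 (SE 0.17) in nph4-1. For CYP89A6 these were -1.78, -1.40 and -1.06, and for CP1 -1.68, -1.56 and -1.41, all called. RFNR2 had -1.50, -1.11 and -0.78, UPM1 -1.31, -0.89 and -0.67, and NADP-ME1 -1.42, -1.39 and -0.59. The strains differ between the mutants, so these means are not a comparison of genotypes.

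**Figure D4:**
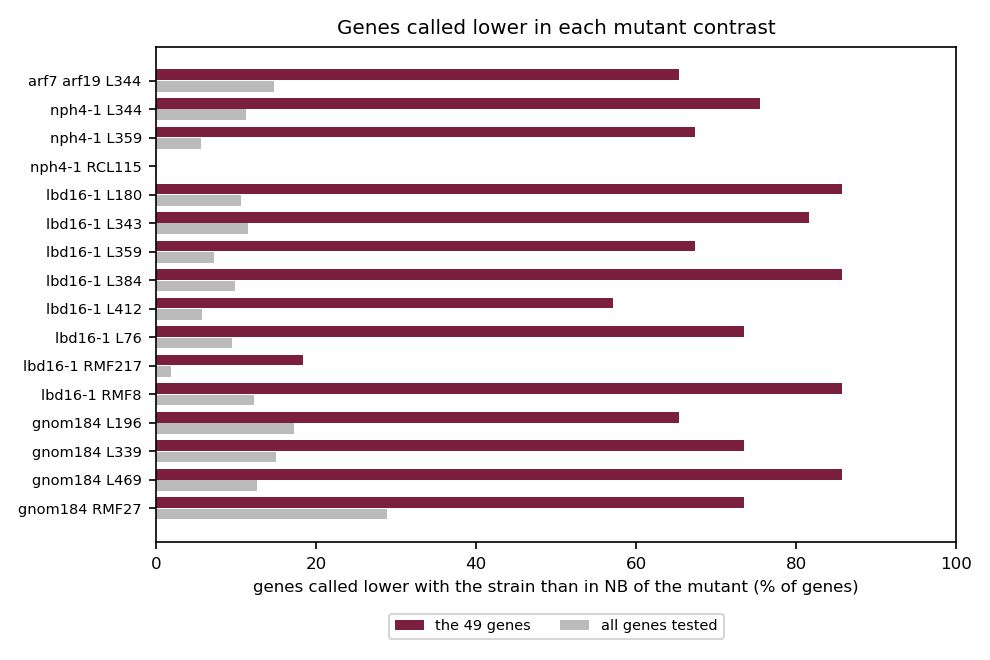
Bars give, for each of the 16 mutant contrasts, the percent of the 49 genes and the percent of all 21635 genes tested that edgeR called lower than NB at an adjusted p under 0.05. The share of the 49 genes is 85.7% with lbd16-1 RMF8, against 12.2% of all genes, and 0% with nph4-1 RCL115.

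L344 was given to both arf7 arf19 and nph4-1. In arf7 arf19, 32 of the 49 genes were called lower with it (14.8% of all genes tested) and 2 higher (19.6%). The difference of the responses was tested as an interaction, arf7 arf19 minus nph4-1: 8 of the 49 genes were higher (5.89% of all genes) and none lower (4.24%), with 11 higher and 6 lower at an unadjusted p under 0.05 and 8 higher and none lower by DESeq2. The 8 are CP1, ChlAKR, UGT74E2, GSTU25, NIT4, AT3G16530, AT1G76470 and AT4G08555; UGT74E2 and AT3G16530 were named after their values were seen. CP1 had 10.2, 15.4 and 22.9 CPM in arf7 arf19 with L344, against 14, 19.2 and 32.9 CPM in arf7 arf19 NB, which overlap. In nph4-1 CP1 had 6.55, 8.44 and 11.3 CPM with L344, against 33.4, 42.7 and 59.4 CPM in NB, which do not. The difference for CP1 was 1.93 (SE 0.28, adjusted p 4.99e-08) on the log2 scale. The adjusted p of the others lay between 8.56e-08 and 0.0269.

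Several of these genes were already low in axenic arf7 arf19. AT3G16530 was not, with a median of 131 CPM in arf7 arf19 NB, against 91.7 CPM in Col 0 NB. The part of the axenic level in the interactions was not tested. NIT4 had 3.11, 3.76 and 6.3 CPM in arf7 arf19 with L344, against 2.33, 2.9 and 3.1 CPM in its NB libraries. In nph4-1 NIT4 had 2.26, 3.29 and 4.73 CPM with L344, against 5.75, 9.06 and 11.3 CPM in NB (interaction 1.88, SE 0.29, adjusted p 2.55e-07). GSTU25 had 141, 143 and 167 CPM with L344, against 114, 137 and 191 CPM in arf7 arf19 NB, and 93.2, 96.1 and 117 CPM, against 196, 249 and 306 CPM, in nph4-1 (1.297, SE 0.21, adjusted p 1e-06). The glucosyltransferase gene UGT74E2, whose enzyme acts on the auxin precursor indole-3-butyric acid, had 15.7, 19.5 and 32.1 CPM with L344, against 16.13, 20.4 and 27 CPM in arf7 arf19 NB. In nph4-1 UGT74E2 had 12.1, 15.3 and 20.4 CPM with L344, against 38.5, 45.9 and 50.9 CPM in NB (1.52, SE 0.29, adjusted p 2.65e-05). ChlAKR had 4.25, 5.4 and 6.59 CPM with L344, against 6.04, 8.15 and 10.8 CPM in arf7 arf19 NB, and 1.56, 2.79 and 3.69 CPM, against 7.13, 11 and 14.1 CPM, in nph4-1 (1.44, SE 0.38, adjusted p 0.00405). AT1G76470 had an interaction of 2.04 (SE 0.30, adjusted p 8.56e-08).

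The nitrogen and reductant genes fell with L344 in both mutants, and no interaction was called for any of the 6. UPM1 had 134, 140 and 153 CPM with L344, against 311, 358.6 and 385 CPM in arf7 arf19 NB, and 120, 129 and 138 CPM, against 253, 283 and 329 CPM, in nph4-1 (interaction -0.15, SE 0.16, adjusted p 0.661). RFNR2 had 222, 260 and 304 CPM with L344, against 651, 859 and 930 CPM in arf7 arf19 NB, and 190, 202 and 245 CPM, against 403, 500 and 581 CPM, in nph4-1. In each of these 4 comparisons the groups did not overlap.

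**Figure D5:**
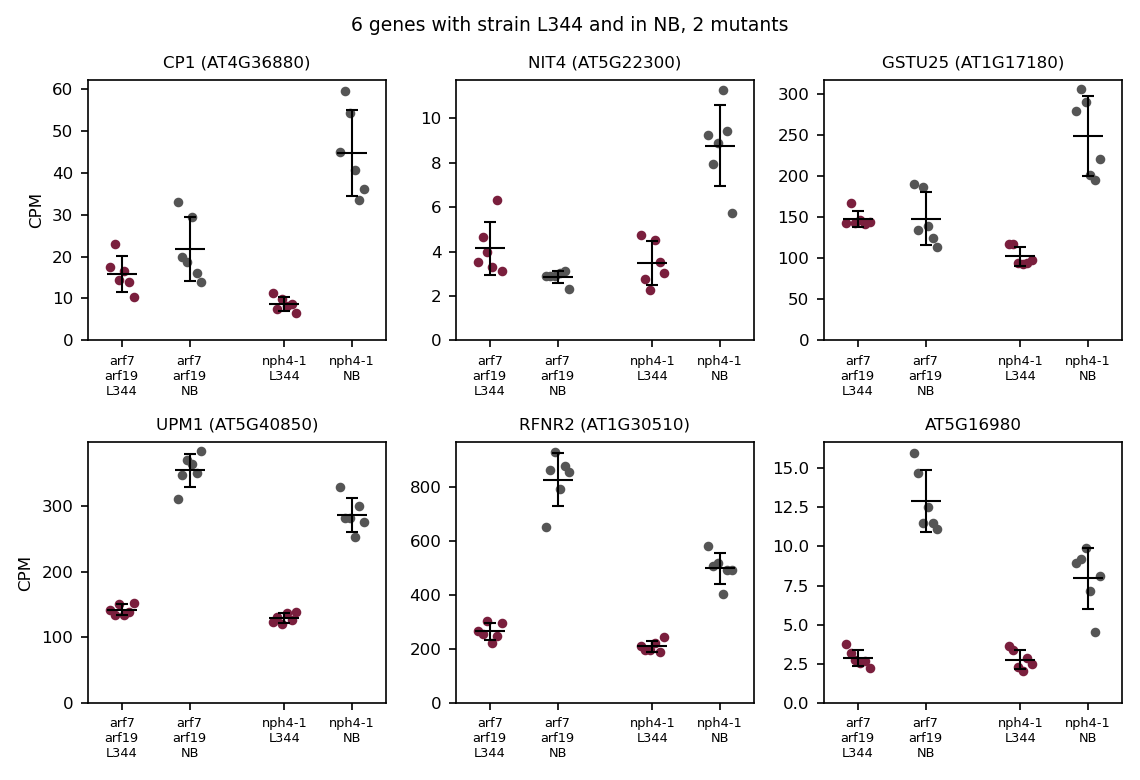
CPM of CP1, NIT4, GSTU25, UPM1, RFNR2 and AT5G16980 with L344 and without bacteria (NB) in arf7 arf19 and nph4-1; points are libraries, and lines give the mean ± SD (n = 6). The L344 and NB groups of CP1, NIT4 and GSTU25 overlap or lie close in arf7 arf19 and are apart in nph4-1, and those of UPM1 and RFNR2 are apart in both.

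CAB3 was called higher in arf7 arf19 with L344 (log2 fold change 2.01, SE 0.76, adjusted p 0.0293), yet its median there was 10.7 CPM, against 24.4 CPM in NB. A single library held 572 CPM and the next 17.1 CPM, and in that library the shoot markers summed to 5577 CPM, against a group median of 537 CPM. With only the libraries numbered 112 to 222 the fold change was -1.65. NIT4 was called higher in the same contrast (0.53, SE 0.21, adjusted p 0.0421); the call was lost without NB replicate 1, 2, 3, 5 or 6 of each mutant, with the fold change at 0.46 without replicate 6.

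L359 was given to both lbd16-1 and nph4-1, and no interaction was called for any of the 49 genes, beside 0% of all genes tested; at an unadjusted p under 0.05 there was 1 lower and 1 higher. The estimates were 0.03 (SE 0.28) for CP1, -0.05 (SE 0.19) for RFNR2, -0.14 (SE 0.31) for AT5G16980, 0.51 (SE 0.35) for NAS2, -0.35 (SE 0.24) for NADP-ME1 and -0.76 (SE 0.29) for ELIP2. DESeq2 called 1, the sparse non-coding AT1G05523. A difference that misses the threshold does not show that the mutants act alike.

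With RMF217 the counts of calls differed with the range of library numbers used. Titles number the libraries from 1 to 222, each group has 3 numbered 1 to 111 and 3 numbered 112 to 222, and the study was repeated, though which number belongs to which repeat is not given. For the 2 libraries of open number, both candidates lie in the lower range. The median ratio of the 49 genes to Col 0 NB lay at 0.476 to 0.5995 in the 3 low-numbered Col 0 RMF217 libraries and at 1.07 to 1.18 in the 3 high-numbered ones. In lbd16-1 with RMF217 it lay at 0.394 to 0.499 and at 0.881 to 0.910, against 0.784 to 0.908 in the 6 lbd16-1 NB libraries. Groups without RMF217 also separated by number: in 13 of the 37 groups, both RMF217 groups included, the libraries numbered 1 to 111 all lay below those numbered 112 to 222, in 1, lbd16-1 with L76, all lay above, and in 23 they overlapped. In Col 0 with RCL115 the ranges were 0.672 to 0.823 and 0.873 to 0.907, and in nph4-1 NB they were 0.677 to 0.771 and 0.828 to 0.856. With all 6 libraries a side 9 genes were called lower in lbd16-1 (CP1, RFNR2, AT3G22550, AT5G41670, G6PD3, AT3G05400, UPM1, ELIP2 and NADP-ME1, 5 of them nitrogen and reductant genes), with a median log2 fold change of -0.35 over the 49. With numbers 1 to 111 alone 32 were called lower (3.01% of all genes tested), with a median of -0.96. With numbers 112 to 222 alone none was called lower (0.518%) and AT4G08555 was called higher (0.54, adjusted p 0.0207, beside 1.08% of all genes), with a median of 0.06.

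The pathway lists put these genes beside their neighbours in function; the lists were chosen with earlier results of these data known. Among all genes tested, 14.8% were called lower and 19.6% higher in arf7 arf19 with L344, 5.99% and 7.07% in the nph4-1 mean, 12.3% and 13.9% in the lbd16-1 mean, and 22.3% and 24.2% in the gnom184 mean, and the counts of every list below stand beside these shares. Of 6 genes tested on the alkenal reductase list, AER and AT5G16980 included, 6 were lower in arf7 arf19 with L344, 4 in the nph4-1 mean, 6 in the lbd16-1 mean and 5 in the gnom184 mean, and none was higher. AT5G17000, 1 of the 4 that are not members, had log2 fold changes of -0.22 (SE 0.08) in arf7 arf19, -0.29 (SE 0.06) in nph4-1, -0.35 (SE 0.06) in lbd16-1 and -0.82 (SE 0.06) in gnom184. Of 12 sulfur deficiency genes, none a member, 9 were lower and 2 higher in arf7 arf19, and 10 lower and 1 higher in nph4-1. In lbd16-1 10 of them were lower and 1 higher, and in gnom184 8 were lower and 1 higher. Of 15 nitrate and nitrogen genes, none a member, 6 were lower and 3 higher in arf7 arf19, 3 lower and 1 higher in nph4-1, 3 lower and 3 higher in lbd16-1, and 7 lower and 3 higher in gnom184. NIR1, the nitrite reductase gene and thus the step that UPM1 and RFNR2 serve, was at 0.5 or less of NB in 7 Col 0 strains with a median ratio of 0.527. NIR1 was lower in every one of these 4 comparisons, by log2 fold changes of -1.02 (SE 0.13), -0.46 (SE 0.10), -0.59 (SE 0.09) and -1.34 (SE 0.09). The nitrate reductase genes NIA1 and NIA2 were at 0.5 or less of NB with no Col 0 strain. Their median ratios were above 1 for NIA1 and 0.922 for NIA2. Among the listed nitrate and nitrogen genes with a Col 0 NB median of at least 3 CPM, NIR1 therefore stood nearly alone. The only other at 0.5 or less of NB with any Col 0 strain was AMT1;1, with 1 strain. NRT2.1, the high-affinity nitrate transporter gene, was higher in arf7 arf19 (3.33, SE 0.33), nph4-1 (1.07, SE 0.26) and lbd16-1 (1.43, SE 0.26), and had -0.45 with adjusted p 0.0821 in gnom184. These genes were named after their values were seen.

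The lists that hold another of the 49 genes gave mixed counts. Of 21 iron genes, NAS2 included, 5 were lower and 7 higher in arf7 arf19, 2 and 5 in nph4-1, 3 and 6 in lbd16-1, and 7 and 6 in gnom184. NAS2 was lower in all of these, with log2 fold changes of -0.97, -0.74, -0.89 and -1.39. Of 17 phosphate starvation genes, 9 were lower and 4 higher in arf7 arf19, 5 and 2 in nph4-1, and 7 and 2 in both lbd16-1 and gnom184. Of 11 hypoxia genes, HB1 included, 8 were lower and none higher in arf7 arf19, 2 and 1 in nph4-1, and 5 and 1 in both lbd16-1 and gnom184. Of 15 ethylene genes, ACS7 included, 4 were lower and 2 higher in arf7 arf19, none and 4 in nph4-1, 1 and 5 in lbd16-1, and 1 and 7 in gnom184. ACS7 was lower in arf7 arf19 (-1.21, SE 0.19) and the lbd16-1 mean (-0.87, SE 0.12) and was not called in the nph4-1 or gnom184 mean. With single strains it was called lower in nph4-1 with L344 (-0.98) and in gnom184 with L469 (-0.99), and in 9 of the 16 contrasts in all. Of 19 photosynthesis genes, CAB3 included, none was lower and 7 were higher in arf7 arf19, none was called in nph4-1 or lbd16-1, and 2 were lower and none higher in gnom184; the arf7 arf19 count includes the L344 library with high shoot markers.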

How the data were processed

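Roots of Col 0 and 4 mutants were sequenced in 222 libraries. The authors trimmed reads with fastp 0.20.1 and quantified them with Salmon 1.6.0 against Ensembl Plants transcripts; the deposited values are estimated counts per gene, summed by tximport and rounded to whole numbers, and use of strand and tximport scaling are not given in the sources used here. No column was left unused.

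CPM divides each count by its library total. The rule and threshold are given with the results; members, pathway lists and role groups were chosen with earlier results of these data known, and the role groups after the members' values were seen. All 222 libraries and 37 groups were fitted in edgeR 4.0.16 (TMM, filterByExpr, robust glmQLFit, prior count 0.125, glmQLFTest) with R 4.3.3, adjusted by Benjamini-Hochberg at 0.05 over 21635 genes within a contrast. DESeq2 1.42.0 was an alternative. On simulated counts for lbd16-1 L343 against NB over 21635 genes, 170 of 200 changed genes (85%) were called, with 10 false calls. Tables were handled in pandas 2.3.3, and figures drawn in matplotlib 3.10.9.

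Named genes were the 10 members at 0.5 or less of NB in most strains, the 8 called lower and 5 called higher in most mutant contrasts, the 5 most abundant, members on a pathway list, the 3 nearest each side of the threshold, and neighbours; 28 members met this, and the others named were added for their role after their values were seen. Promoters, the 300 bases before a gene's start, and all coordinates come from TAIR10.1 (NCBI RefSeq); 99.2% of gene identifiers matched. Lists reported are those that hold a member, plus nitrate and nitrogen, and sulfur deficiency, which hold none. The sulfur deficiency list was added after its values were seen, and the other lists without a member are not reported. Replicates are labelled as separate samples, pooled from at least 10 roots each; no replicate number is given, so replicates are numbered in accession order. Alternatives were another scaling, filters, the library number range as covariate or subset, single genotypes, left-out libraries and DESeq2.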

Additional observations from a re-analysis of the deposited data

Results flagged for a closer look

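In 177 groups of 6 libraries and quantities examined, 12 had a highest or lowest library whose gap to the nearest other, over the range, passed Dixon's 95% critical value; chance flags about 1 in 20. The median ratio of the 49 genes was 1.37 in 1 Col 0 NB library, with the next at 1.02, and the same library was highest for PMAT1 (96.5 CPM, next 59.0), AT3G22550 (66.8 CPM, next 35.0) and NAS2 (264.04 CPM, next 132). These Col 0 NB flags rest on libraries that the rule used to choose the genes, so they are a description and not a test. In gnom184 NB, 1 library was highest for AT3G22550 (49.0 CPM, next 32.3), AT3G28510 (81.8 CPM, next 50.1) and ACS7 (7.11 CPM, next 4.401), and another was lowest for AER (94.2 CPM, next 172). AER was lowest in 1 nph4-1 NB library at 46.8 CPM (next 65.1), ChlAKR in 1 lbd16-1 NB library at 6.64 CPM (next 10.3), and NIT4 in 1 arf7 arf19 NB library at 2.33 CPM (next 2.88). AT3G05400 was highest in 1 nph4-1 NB library at 27.1 CPM (next 24.3).

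For 8 genes the response to L344 differed between arf7 arf19 and nph4-1 by the edgeR interaction, with log2 differences, arf7 arf19 minus nph4-1, of 1.93 (CP1), 1.44 (ChlAKR), 1.52 (UGT74E2), 1.297 (GSTU25), 1.88 (NIT4), 0.82 (AT3G16530), 2.04 (AT1G76470) and 0.80 (AT4G08555). In all 8 the fold change was the higher one in arf7 arf19.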

How the results depend on the processing

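The rule gave 99 genes with an NB minimum of 1 CPM, 32 with 10 CPM and 12 when 12 strains were asked for. It gave 82 genes from the libraries numbered 1 to 111 alone (39 shared) and 75 from those numbered 112 to 222 alone (40 shared), and 49 to 62 when each Col 0 NB library was left out. It gave 72 with means in place of medians (39 shared). Over the 16 mutant contrasts, calls higher numbered 3 to 6 without each NB replicate in turn, against 5 in all. In 15 of the 16 contrasts the counts stayed within 1.5 times; lbd16-1 with RMF217 had 32 lower from numbers 1 to 111 and 0 lower and 1 higher from numbers 112 to 222, and the cause was not tested. This split was chosen after seeing the data. DESeq2 called 1 gene in the L359 interaction. Of 1470 alternatives of 98 gene results, 1425 kept direction and call, 44 lost the call and 1 reversed, which was CAB3 in arf7 arf19 with L344 at -1.65 from numbers 112 to 222. No paired analysis was possible because the labels give no replicate numbers shared between groups. With the library number range as a covariate the 16 contrasts gave 531 calls lower and 4 higher. Genes near 3 CPM have few counts and are the least precise.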
